A study of Mus musculus with 6 samples.

Results

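The genes described here encode the glutathione S-transferases (GST), UDP-glucuronosyltransferases (UGT) and sulfotransferases (SULT), the enzymes that attach glutathione, a sugar or sulfate to drugs, steroids, bile acids, bilirubin and reactive lipid products. Members were chosen by symbol (Gsta, Gstk, Gstm, Gsto, Gstp, Gstt, Gstz, Mgst, Ugt or Sult followed by a number, with pseudogenes left out). They also needed a total of at least 20 counts over the 6 libraries. The rule itself used no difference between groups, but it was set with earlier results of these data known. Of the 55401 genes in the deposited table, 68 fitted the symbol rule and 54 reached the minimum: 24 GST, 19 UGT and 11 SULT genes. The 14 genes under the minimum comprised 11 at 0 counts in every library (Sult1c1, Sult2a1 to Sult2a6, Sult3a2, Ugt1a8, Ugt2a1 and Ugt2a2), Gstt4 with 17 counts in all, Sult6b2 with 11 and Sult3a1 with 7, all 7 of them in OP replicate 1.

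The libraries came from fresh liver of C57BL/6 mice, sequenced as poly(A) RNA. In the HFCF group (3 libraries) the mice ate a high fat/cholesterol/fructose diet, used to bring about fatty liver. In the OP group (3 libraries) they were treated with okra polysaccharide, a carbohydrate preparation from the okra plant that the study tested against fatty liver disease. The labels do not give the diet, dose or treatment time of the OP mice, nor the age or sex of either group, and no group on standard diet is part of the comparison. Nor do they state that each sample was its own animal. The p-values below therefore rest on sample-to-sample spread, some of which may be technical.

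Conjugation follows, and often depends on, oxidation by cytochrome P450 enzymes, and it makes lipophilic compounds soluble enough for export into bile or urine. Hepatocytes carry most of this activity in the body. Soluble GSTs work in the cytosol or mitochondria, membrane-bound MGSTs and the UGTs sit in the endoplasmic reticulum, and SULTs are cytosolic. The donors are glutathione, UDP-glucuronic acid and the activated sulfate PAPS. In rodents many of these genes differ between the sexes and between hepatocytes near the central and the portal vein.

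Library totals ranged from 46459980 to 61918541 counts. Hepatocyte markers were abundant in every library, with a summed level of 30770 to 51940 CPM (read counts per library of one standard size, with TMM scaling) in HFCF and 50180 to 74760 in OP. Mitochondrially encoded mRNA took 14.1 to 22% of the counts in HFCF and 6.08 to 14.4% in OP, and OP replicate 3 (14.4%) and HFCF replicate 3 (14.1%) stood closest to the other group. Summed red cell markers were at 941 to 1767 CPM in HFCF and 192 to 414.5 in OP, with 4 of 5 lower, and summed adipocyte markers at 0 to 4.66 CPM in HFCF and 12.4 to 65.0 in OP, with 0 of 3 tested passing. The markers of cholangiocytes, Kupffer cells, recruited macrophages, lymphocytes, stellate cells and endothelium had 0 genes past the test, 0 of 31 in all, and the Kupffer cell markers summed to 228 to 298 CPM in HFCF and 121 to 210 in OP. The part of these differences in the results below was not tested beyond a fit with the mitochondrial share as a covariate. For conjugation genes, this fit is given with each call that it ends. For genes outside the families it is not given, so their calls may or may not hold in it. In whole liver, fewer cells of a type and less RNA per cell cannot be told apart.

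Of the 54 conjugation genes, 48 had enough counts to be tested, 10 were higher in OP, 3 were lower and 35 did not pass (quasi-likelihood test of edgeR, adjusted over 17394 genes by Benjamini-Hochberg). Over all tested genes 3.26% were higher and 3.47% lower, 6.73% in either direction, against 27.1% of the tested members. Among genes with a mean of at least 10 CPM, where calls are more frequent, 10.9% passed in either direction, 6.15% higher and 4.76% lower, and of the 38 members at that level 9 were higher and 3 lower. The libraries of the 2 groups did not overlap for 18 tested members in the higher direction and 4 in the lower, where 15.8% and 15.4% of all genes did the same. The median log2 fold change of the tested members was 0.29, with 31 above 0 and 17 below, beside 0.019 over all tested genes, of which 51.4% lay above 0. The 6 members that were not tested, for want of counts in enough libraries, were Gsto2, Sult2b1, Sult4a1, Sult6b1, Ugt1a2 and Ugt1a10.

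The calls were spread unevenly over the families, a difference that was itself not tested. In the GST family 6 of 23 tested genes were higher and 3 lower (39.1% called, median log2 fold change 0.34). In the SULT family 3 of 8 were higher and 0 lower (37.5%, median 0.44). In the UGT family 1 of 17 was higher and 0 lower (5.88%, median -0.03). This median includes 6 Ugt1a genes, which share exons, so the division of counts among them is uncertain. Taken singly, these 6 had a median of -0.21. The Ugt1a genes as a sum were at 0.35 ± 0.16 and did not pass (edgeR adjusted p = 0.219). The 8 tested Ugt2 genes had a median of 0.01. The UGT median may therefore depend in part on how the Ugt1a counts were divided. By subfamily, the calls fell on 2 of 4 Gsta, 1 of 1 Gstk, 3 of 3 Gstp, 2 of 3 Gstt, 1 of 3 Mgst, 2 of 5 Sult1, 1 of 2 Sult2 and 1 of 8 Ugt2 genes tested. They did not touch the 7 Gstm, 6 Ugt1a and 2 Ugt3 genes tested, nor Gsto1, Gstz1, Sult5a1 or Ugt8a.

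**Figure D1:**
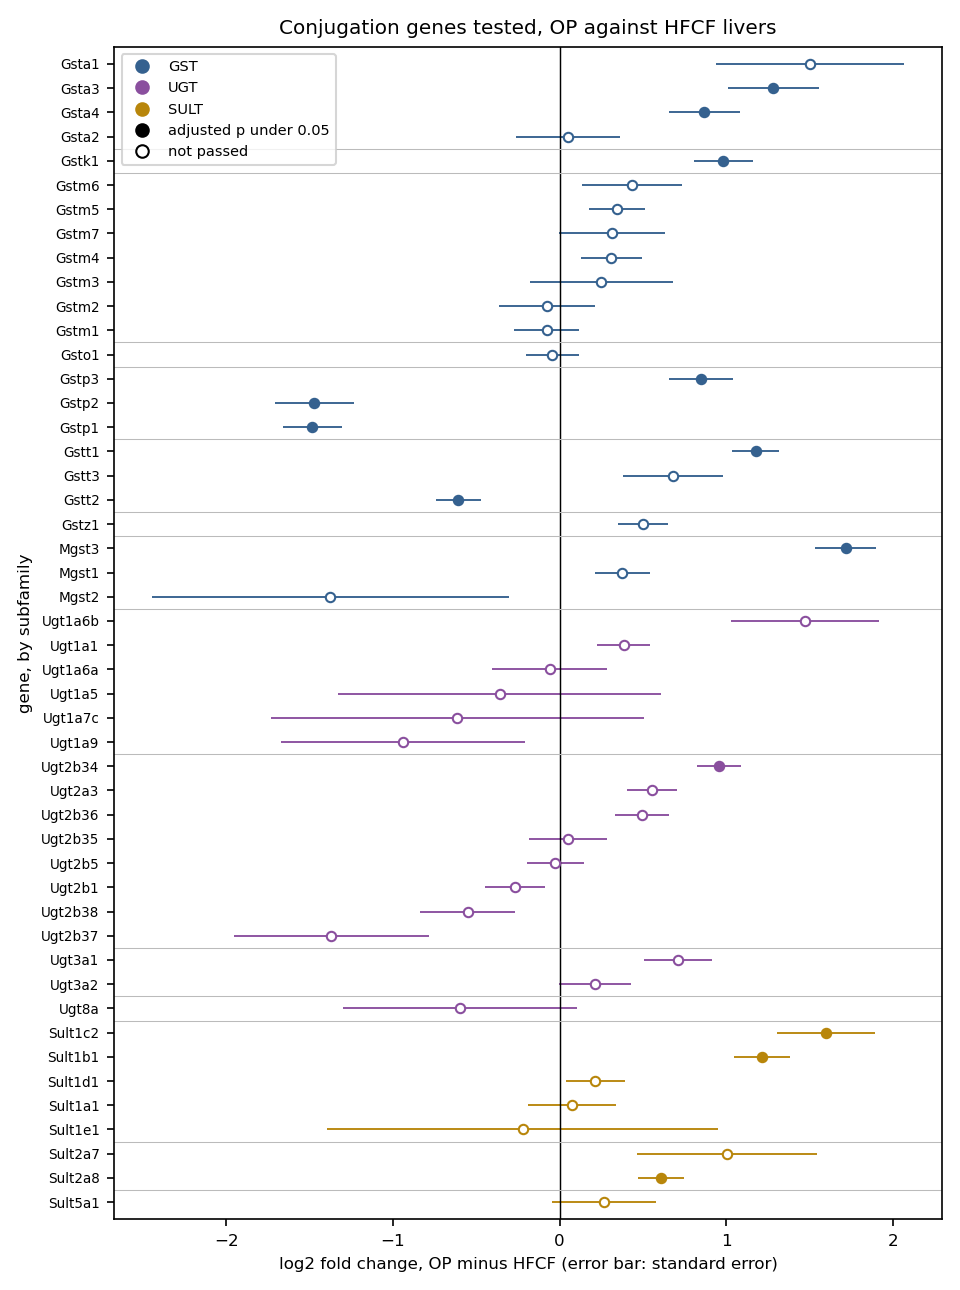
Log2 fold change, OP minus HFCF, of the 48 tested conjugation genes, grouped by subfamily and coloured by family; bars are standard errors and filled points have an adjusted p under 0.05. The filled points lie on both sides of 0 in the GST family, where Mgst3 reaches 1.72 and Gstp1 -1.48, and Ugt2b34 is the filled point among the UGT genes.

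The pi-class GSTs Gstp1, Gstp2 and Gstp3 are 3 neighbouring genes whose products conjugate electrophiles in the cytosol. Gstp1 (ENSMUSG00000060803) was at 1950, 1917 and 2094 CPM in HFCF replicates 1 to 3 and at 579.5, 733 and 819 CPM in OP replicates 1 to 3. All OP libraries were far below all HFCF libraries. The means were 1987 ± 94.1 and 710.7 ± 121.5 CPM (SD, n = 3 each), and OP stood at 0.358 of the HFCF level (log2 fold change -1.48 ± 0.18 SE, edgeR adjusted p = 0.00529). Gstp2 (ENSMUSG00000038155) was at 433, 413 and 391 CPM in HFCF and 106, 133 and 207 CPM in OP. Its groups did not overlap either, and OP replicate 3 was the highest of its group (log2 fold change -1.47 ± 0.24, edgeR adjusted p = 0.0136). Gstp3 (ENSMUSG00000058216) went the other way, at 7.03, 6.86 and 7.86 CPM in HFCF and 15.2, 13.9 and 10.01 CPM in OP. Again no library of one group fell within the range of the other (log2 fold change 0.85 ± 0.19, edgeR adjusted p = 0.0388). The covariate fit ended the calls of Gstp3 (log2 fold change 0.41, adjusted p = 0.464) and Gstp2 (-0.96, 0.128), and that of Gstp1 held (-1.37, 0.0457). Within a library, the count of Gstp1 was 266 to 279 times that of Gstp3 in HFCF and 38.2 to 81.8 times in OP, whereas the ratio of Gstp1 to Gstp2 overlapped, at 4.499 to 5.36 and 3.96 to 5.52.

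The coding sequences of the 3 genes show how far their reads can be told apart. Gstp1 and Gstp2 share 98.1% of 633 coding bases and Gstp2 and Gstp3 73.0%. The first 150 coding bases from GENCODE M21 are printed in lower case, with capitals where a base differs from Gstp1, at 6 positions in Gstp2 and 31 in Gstp3:
Gstp1: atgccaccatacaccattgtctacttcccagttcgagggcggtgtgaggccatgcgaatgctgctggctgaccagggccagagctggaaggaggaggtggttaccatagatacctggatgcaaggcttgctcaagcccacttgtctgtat
Gstp2: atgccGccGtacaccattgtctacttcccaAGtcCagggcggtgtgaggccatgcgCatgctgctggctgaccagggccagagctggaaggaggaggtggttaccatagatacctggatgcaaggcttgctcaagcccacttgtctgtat
Gstp3: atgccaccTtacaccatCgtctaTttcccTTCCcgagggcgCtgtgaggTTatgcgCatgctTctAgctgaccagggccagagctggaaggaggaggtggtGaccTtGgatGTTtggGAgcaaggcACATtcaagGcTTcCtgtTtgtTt
Reads from the long stretches that Gstp1 and Gstp2 share could be counted for either gene, so the split between them is uncertain. Their sum does not depend on this split, though shared reads left uncounted or counted elsewhere would be missing from it. The sum was 2399 ± 78.8 CPM in HFCF and 859 ± 170.4 CPM in OP, with a log2 fold change of -1.48 ± 0.19 (edgeR adjusted p = 0.00636 with close copies summed). Gstp-ps, a pseudogene of this cluster that is no member, was at 135.5 ± 12.6 and 47.8 ± 19.8 CPM, with a log2 fold change of -1.51 ± 0.27 (edgeR adjusted p = 0.0184), and its reads too could come from the close copies. Gstp3, the most distant of the 3, was not summed with them.

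The 250 bases before the start of Gstp1 and Gstp2, the largest decreases among the called members, were read from RefSeq's promoter table (GRCm38.p6), in which 48 of the 54 members were found. Both lie on the minus strand, at chr19:4037913-4038162 and chr19:4042222-4042471, and are printed 5′ to 3′ in the direction of transcription. The capitals mark the AP-1 motif TGAGTCA, whose first base is 74 bases before the start in Gstp1 and 89 in Gstp2:
Gstp1 promoter: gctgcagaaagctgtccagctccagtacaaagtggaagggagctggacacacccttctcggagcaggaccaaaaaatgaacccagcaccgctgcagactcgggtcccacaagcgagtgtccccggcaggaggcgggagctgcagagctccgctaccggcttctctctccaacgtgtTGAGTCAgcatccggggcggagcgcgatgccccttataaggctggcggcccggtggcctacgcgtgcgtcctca
Gstp2 promoter: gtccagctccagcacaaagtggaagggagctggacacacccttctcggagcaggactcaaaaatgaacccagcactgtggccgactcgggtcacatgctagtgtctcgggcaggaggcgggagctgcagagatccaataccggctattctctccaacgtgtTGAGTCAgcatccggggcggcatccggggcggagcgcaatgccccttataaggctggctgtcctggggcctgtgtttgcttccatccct
The sequences matched at 78.1% of 265 aligned columns, while the same window of Gstp3 matched Gstp1 at 46% and held no AP-1 motif. Searched on both strands, TGAGTCA was in 4.46% of all 32851 promoters of this length, in 6 of the 48 matched members, in both lower members that matched (Gstp1 and Gstp2) and in 0 of the 9 higher members that matched. The core of the antioxidant response element, searched as TGACNNNGC, was in 10.2% of all promoters, in 4 of 48 members (Gsta3, Gstm5, Gstm7 and Mgst1) and so in 1 of the 9 higher ones. In Gstp1 and Gstp2 the marked TGAGTCA is followed by gc and differs from this pattern by a G in place of the C. Patterns with that G were not searched, so the count does not show that Gstp1 and Gstp2 lack such an element. The core of the xenobiotic response element, GCGTG, was in 28.2% of all promoters and in 11 of 48 members, among them the higher genes Gstp3, Mgst3 and Sult1b1 and the lower gene Gstp1. These are matches of letters in a short window and say nothing of a factor bound there.

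The theta-class GSTs, which act on small halogenated compounds, were also divided. Gstt1 (ENSMUSG00000001663) was at 145, 133 and 159 CPM in HFCF and 338, 299.9 and 350.5 CPM in OP. The groups were well apart, with OP 2.26-fold higher (log2 fold change 1.18 ± 0.14, edgeR adjusted p = 0.00529). Gstt2 (ENSMUSG00000033318), from the same cluster, was at 307, 314 and 321 CPM in HFCF and 188, 202 and 229 CPM in OP. Here the OP libraries were the lower ones without overlap, at 0.656 of the HFCF mean (log2 fold change -0.61 ± 0.14, edgeR adjusted p = 0.0367). The ratio of Gstt2 to Gstt1 counts in a library was 2.01 to 2.36 in HFCF and 0.556 to 0.673 in OP. The order of the pair thus turned between the groups in counts, which are not corrected for gene length. Per kilobase, Gstt2 stood at 138 and Gstt1 at 98.7 CPM in HFCF, and at 90.5 and 223 CPM in OP. Gstt3 overlapped between groups, at 25.8, 27.7 and 44.4 CPM against 73.7, 48.2 and 35.1 CPM (log2 fold change 0.68, adjusted p = 0.203). The coding identity of Gstt1 to Gstt3, its closest member, was 75.5% and that of Gstt2 to Gstt3 61.5%. The Gstt2 call ended without HFCF replicate 1, 2 or 3 or OP replicate 1 or 2 (adjusted p 0.0618 to 0.171), and the Gstt1 call without HFCF replicate 1 (0.0521) or HFCF replicate 2 (0.0658). The covariate fit ended the Gstt2 call (log2 fold change -0.51, adjusted p = 0.203) and not that of Gstt1 (1.19, 0.0437).

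The membrane-bound MGSTs include Mgst1, an abundant microsomal transferase and peroxidase, and Mgst3, which handles leukotrienes and lipid peroxides. Mgst3 (ENSMUSG00000026688) was at 7.32, 8.90 and 11.3 CPM in HFCF and 32.4, 29.2 and 29.0 CPM in OP. The lowest OP library was far above the highest HFCF library, and OP was 3.29-fold higher (log2 fold change 1.72 ± 0.18, edgeR adjusted p = 0.00361), the largest change of a called member. Mgst1 was the most abundant member per kilobase over all 6 libraries, though behind Gstp1 in HFCF, with 3015, 2971 and 3185 CPM in HFCF and 3728, 3787 and 4390 CPM in OP. Its groups did not overlap either, yet it missed the threshold (log2 fold change 0.38 ± 0.17, edgeR adjusted p = 0.201). In a library there were 282 to 412 counts of Mgst1 for 1 of Mgst3 in HFCF and 115 to 151.5 in OP. Mgst2 was close to the detection floor, at 0.483 and 0.181 CPM on average (log2 fold change -1.38, adjusted p = 0.471).

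In the alpha class, Gsta3 and Gsta4 were higher in OP. Gsta3 (ENSMUSG00000025934), which detoxifies the epoxide of aflatoxin in mice, was at 374, 412 and 659.5 CPM in HFCF and 1426, 1237 and 852 CPM in OP. The third replicate of each group stood nearest the other group, and the groups still did not overlap (2.43-fold, log2 fold change 1.28 ± 0.27, edgeR adjusted p = 0.0315). Gsta4 (ENSMUSG00000032348), which conjugates hydroxynonenal, a product of lipid peroxidation, was at 22.6, 19.8 and 34.0 CPM in HFCF and 52.6, 43.3 and 43.5 CPM in OP (log2 fold change 0.87 ± 0.21, edgeR adjusted p = 0.0488). HFCF replicate 3 was again the nearest to OP. Gsta1 and Gsta2 are 97.5% identical in their coding bases, did not pass (log2 fold changes 1.5 and 0.05, adjusted p = 0.143 and 0.944), and as a sum were at 16.7 ± 7.43 and 19.0 ± 3.59 CPM. Gsta3 lost its call without HFCF replicate 1 or 2 or OP replicate 1 or 2 (adjusted p 0.0748 to 0.19). The covariate fit (mitochondrial share) ended the Gsta3 call too (log2 fold change 0.48, edgeR adjusted p = 0.305). Gsta4 lost its call without each library except HFCF replicate 3 (0.0649 to 0.243). The covariate fit ended its call as well (log2 fold change 0.49, edgeR adjusted p = 0.41).

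The remaining GST classes held 1 further call. Gstk1 (ENSMUSG00000029864), the kappa-class enzyme of mitochondria and peroxisomes, was at 83.2, 76.3 and 109.9 CPM in HFCF and 186, 191 and 154 CPM in OP. The groups were apart and OP was 1.97-fold higher (log2 fold change 0.98 ± 0.18, edgeR adjusted p = 0.0197). The call ended when HFCF replicate 1 or 2 or OP replicate 1 was left out (adjusted p 0.0839 to 0.149). It also ended in the covariate fit (log2 fold change 0.58, edgeR adjusted p = 0.189). Gstz1, an isomerase of tyrosine breakdown, was at 532, 520.2 and 542 CPM in HFCF and 862, 727 and 665.5 CPM in OP. It did not overlap between groups and missed the threshold (log2 fold change 0.50 ± 0.15, edgeR adjusted p = 0.0828), which it passed without OP replicate 3 (0.0479) and in DESeq2 (0.0171). The 7 mu-class genes had a median log2 fold change of 0.31, from -0.08 to 0.44, and 0 of 7 passed. Their most abundant member, Gstm1, was at 846, 785 and 1094 CPM in HFCF and 1023, 711 and 847 CPM in OP, fully interleaved (log2 fold change -0.08 ± 0.20, adjusted p = 0.846). Gstm5, at 6.34 ± 0.400 and 8.05 ± 0.391 CPM, was the mu-class gene whose groups did not overlap (adjusted p = 0.237). Gsto1, which reduces dehydroascorbate and other thiol-linked substrates, was at 78.4 ± 9.54 and 76.1 ± 9.79 CPM (log2 fold change -0.04 ± 0.16, adjusted p = 0.901).

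**Figure D2:**
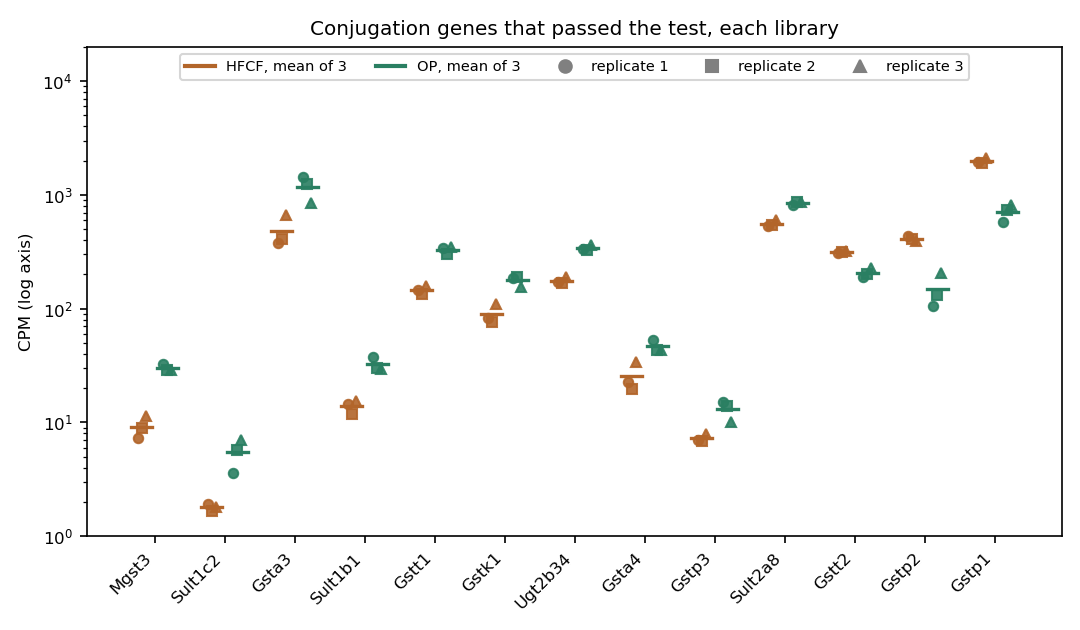
Level in CPM on a log axis of the 13 conjugation genes that passed the test, in each library (marker shape gives the replicate) with the group mean as a bar. No gene has an HFCF library within the OP range; Gstp1, Gstp2 and Gstt2 are lower in OP and the other 10 higher, and replicate 3 of each group often lies nearest the other group, as for Gsta3 at 659.5 and 852 CPM.

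Among the sulfotransferases, 3 genes were higher in OP. Sult1b1 (ENSMUSG00000029269), which sulfates thyroid hormones and phenols, was at 14.6, 11.8 and 15.3 CPM in HFCF and 37.7, 29.8 and 29.3 CPM in OP. The groups lay well apart (2.32-fold, log2 fold change 1.22 ± 0.17, edgeR adjusted p = 0.00889). Sult1c2 (ENSMUSG00000023122), a phenol sulfotransferase, was at 1.93, 1.66 and 1.78 CPM in HFCF and 3.62, 5.66 and 7.02 CPM in OP. The HFCF libraries were tightly grouped and the OP libraries widely spread, with replicate 1 the lowest of them (3.03-fold, log2 fold change 1.6 ± 0.29, edgeR adjusted p = 0.0203). Sult2a8 (ENSMUSG00000030378), a bile acid sulfotransferase of mouse liver, was at 529.6, 543 and 599 CPM in HFCF and 815, 872 and 866 CPM in OP. Per kilobase it was the most abundant SULT over all 6 libraries, though level with Sult1a1 in HFCF, and its groups did not overlap (1.53-fold, log2 fold change 0.61 ± 0.14, edgeR adjusted p = 0.038). Sult1b1 and Sult1c2 lost their calls without HFCF replicate 1 (adjusted p = 0.0622 and 0.104) or HFCF replicate 2 (0.0708 and 0.128), and Sult2a8 without either of these or OP replicate 1 or 2 (0.10 to 0.222). The covariate fit ended all 3 calls, with log2 fold changes of 1.06, 1.96 and 0.54 (adjusted p = 0.0996, 0.0831 and 0.166).

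The other abundant sulfotransferases did not pass. Sult1a1, the main phenol sulfotransferase, was at 310.1, 301 and 491 CPM in HFCF and 515, 354 and 289 CPM in OP, with both groups spread over the same range (log2 fold change 0.07 ± 0.26, adjusted p = 0.901). Sult1d1, a catecholamine sulfotransferase, was at 87.6 ± 7.04 and 101.6 ± 21.6 CPM (log2 fold change 0.21 ± 0.18, adjusted p = 0.504). Sult5a1 was at 22.1 ± 3.65 and 26.5 ± 12.4 CPM (adjusted p = 0.647). Sult2a7, in the hydroxysteroid group, had 19, 34 and 106 counts in HFCF and 94, 159 and 81 in OP (log2 fold change 1.0 ± 0.54, adjusted p = 0.291). Sult1e1, the oestrogen sulfotransferase, had 16, 19 and 34 counts in HFCF and 55, 0 and 9 in OP (adjusted p = 0.935). The neuronal gene Sult4a1 had 52 counts in all and Sult6b1 had 24. For a gene at 0 counts in a library, 3 counts would be 0.0485 to 0.0646 CPM before scaling, a floor for counting error only. Sult2a1 to Sult2a6 and Sult3a2 had 0 counts in every library. As the counter is not given, absent transcripts and reads left uncounted because they fit several genes cannot be told apart.

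Of the UGT genes, 1 of 17 tested passed. Ugt2b34 (ENSMUSG00000029260), a member of the steroid and bile acid glucuronidating Ugt2b group, was this gene, at 169.8, 167 and 190.2 CPM in HFCF and 338, 325.5 and 359.6 CPM in OP. The groups were far apart for their spread (1.94-fold, log2 fold change 0.96 ± 0.13, edgeR adjusted p = 0.00885). The call ended without HFCF replicate 1 (0.0757) or HFCF replicate 2 (0.0919), in the covariate fit (0.0539) and with the replicate number as a block. The log2 fold change kept to between 0.89 and 1.02 over all alternatives. Its closest member, Ugt2b1, shared 74.6% of its coding bases and was at a log2 fold change of -0.27 (adjusted p = 0.406). Ugt2b5, the most abundant UGT per kilobase over all 6 libraries, though behind Ugt2b36 in OP, was at 543, 513 and 679 CPM in HFCF and 490.2, 579 and 636 CPM in OP. Its groups interleaved, alone (log2 fold change -0.03 ± 0.17, adjusted p = 0.951) and summed with its near copy Ugt2b38 (97.1% coding identity, log2 fold change -0.04 ± 0.17). Ugt2b36 was at 405, 407 and 508.5 CPM in HFCF and 598, 559 and 701 CPM in OP, without overlap. It missed the threshold (log2 fold change 0.49 ± 0.16, edgeR adjusted p = 0.103) and passed it in DESeq2 (0.0439). Ugt2a3 (log2 fold change 0.55, adjusted p = 0.0637) was likewise apart and not past the threshold, which it passed in DESeq2 and without HFCF replicate 3. Ugt2b37 was at 4.62, 5.22 and 6.57 CPM in HFCF and 0.450, 2.55 and 3.37 CPM in OP, the 1 UGT gene with OP entirely below HFCF (log2 fold change -1.37 ± 0.59, adjusted p = 0.191).

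The Ugt1a genes are alternative first exons joined to common later exons, and each shares at least 1311 exon bases with the others on the same strand in GENCODE M21, which is 58.9% of the 2224 exon bases of Ugt1a1. How counts were divided among them is therefore uncertain. Ugt1a1, the enzyme that glucuronidates bilirubin, was at 429.6, 476 and 532 CPM in HFCF and 659, 682 and 534 CPM in OP, with OP replicate 3 just above HFCF replicate 3 (log2 fold change 0.38 ± 0.16, adjusted p = 0.181). Ugt1a6b was at 20.1, 25.3 and 29.5 CPM in HFCF and 48.8, 32.9 and 126.5 CPM in OP (log2 fold change 1.47 ± 0.45, adjusted p = 0.0833), and passed the threshold without OP replicate 2. Its high OP library, replicate 3, had the lowest count of the near copy Ugt1a6a of all libraries, 1842 against 3000 to 6427. Ugt1a2 had 302 counts in OP replicate 1 and 0 in the other 5 libraries, including every HFCF library. Ugt1a10 had 884 counts in HFCF replicate 3, 38 in OP replicate 2 and 0 elsewhere, and Ugt1a7c had 788, 53 and 18 counts in HFCF and 171, 184 and 281 in OP. The counts of Ugt1a2 and Ugt1a10 stand in 1 or 2 libraries, and these genes were not tested. Ugt1a7c had counts in every library, the most in HFCF replicate 1, and did not pass (log2 fold change -0.61, edgeR adjusted p = 0.782). No conclusion about the groups was drawn from these genes one by one. Summed, the Ugt1a genes were at 622.5 ± 83.6 and 794 ± 74.8 CPM, with a log2 fold change of 0.35 ± 0.16 (edgeR adjusted p = 0.219).

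The small UGT groups use other sugars. Ugt3a1, which transfers N-acetylglucosamine, was at 22.3, 18.5 and 29.1 CPM in HFCF and 38.7, 44.3 and 31.3 CPM in OP, without overlap (log2 fold change 0.71 ± 0.20, adjusted p = 0.0732). Ugt3a1 passed the threshold in DESeq2 and without HFCF replicate 3. Ugt3a2, 93.3% identical to it in coding bases, was at 97.6 ± 18.4 and 113 ± 28.4 CPM (log2 fold change 0.21 ± 0.22, adjusted p = 0.59). Ugt8a, the ceramide galactosyltransferase of myelin, was near the floor at 0.330 and 0.217 CPM (log2 fold change -0.60, adjusted p = 0.644).

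By level, the GST family as a whole took overlapping shares of the libraries in both groups while its makeup differed. The GST members took 0.745, 0.808 and 0.924% of all counts in HFCF and 0.912, 0.864 and 0.841% in OP, which overlapped (0.826 ± 0.0906 and 0.873 ± 0.0364%, SD, n = 3). The UGT members took 0.208, 0.229 and 0.29% against 0.290, 0.302 and 0.292%, and the SULT members 0.0902, 0.1003 and 0.126% against 0.153, 0.141 and 0.129%, with every OP library above every HFCF library in both families, for UGT by 0.2902 against 0.2896%. These shares depend on the mitochondrial counts in the total: without mitochondrial genes, GST stood at 1.01% in HFCF and 0.967% in OP, so the order of the means turned, while UGT (0.296 and 0.327%) and SULT (0.129 and 0.156%) kept theirs. The UGT libraries then overlapped, with HFCF replicate 3 at 0.338% above OP replicates 1 (0.315%) and 2 (0.323%), and the SULT libraries still did not, at 0.116 to 0.147% in HFCF and 0.1501 to 0.1655% in OP.

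Within the GST family, as a share of summed CPM per kilobase, Gstp1 made up 38.2, 38.4 and 36.6% in HFCF and 12.1, 16.0 and 16.8% in OP. It was the leading GST transcript in all HFCF libraries and stood behind Mgst1 in OP replicates 2 and 3 and behind Mgst1, Gsta3 and Gstm1 in OP replicate 1. Mgst1 went from 26.0 ± 0.929% to 37.3 ± 2.83%. Gsta3 went from 4.78 ± 1.17% to 13.1 ± 3.38%, Gstz1 from 3.86 ± 0.206% to 6.04 ± 0.816% and Gstt1 from 1.54 ± 0.0472% to 3.85 ± 0.196%. Gstm1 held 10.3 ± 1.06% and 10.8 ± 1.78%. Shares of one family add up to a whole, so a lower share of Gstp1 raises the others and only the fold changes above say which genes differed. In the UGT family Ugt2b5 had 28.3 ± 0.752% in HFCF and 23.1 ± 2.04% in OP, Ugt2b36 21.2 ± 0.256% and 24.8 ± 2.27%, and Ugt1a1 19.7 ± 1.44% and 21.3 ± 3.40%. In the SULT family Sult2a8 and Sult1a1 were level in HFCF, at 45.6 ± 4.39% and 45.4 ± 5.28%, and stood at 53.7 ± 6.39% and 37.0 ± 7.77% in OP.

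**Figure D3:**
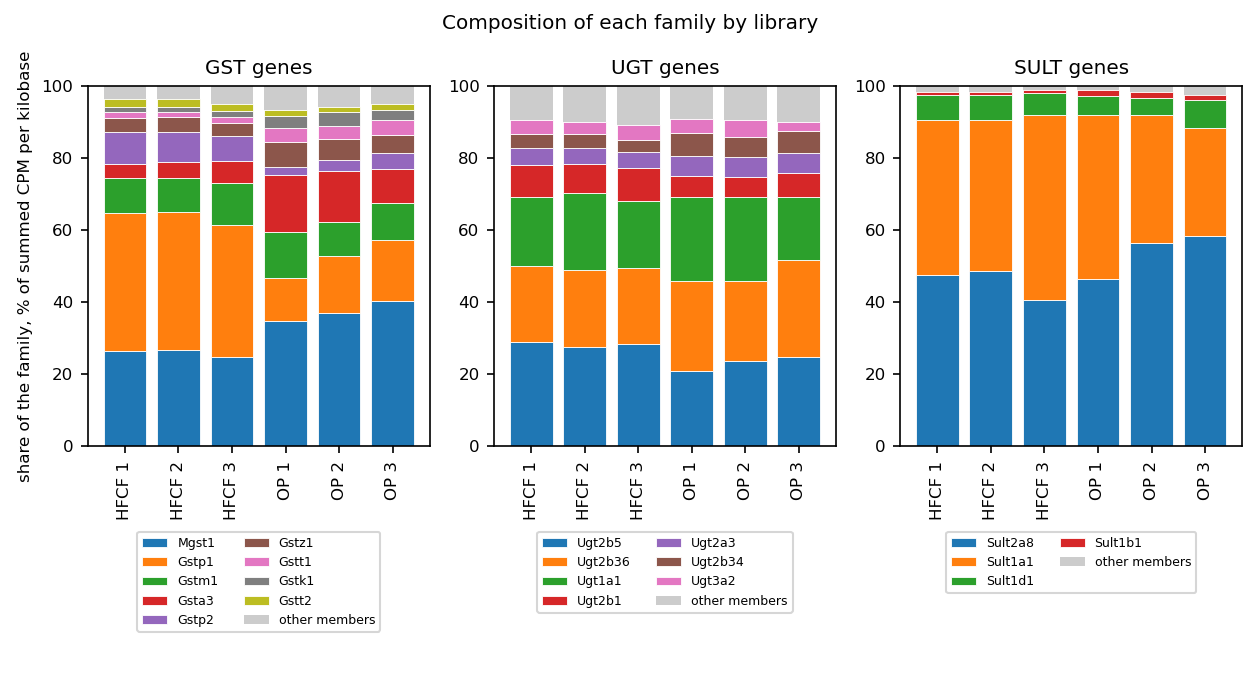
Share of each gene in the summed CPM per kilobase of its family, in percent, for each of the 6 libraries, with the less abundant members pooled in grey. The Gstp1 segment shrinks from 36.6 to 38.4% in HFCF to 12.1 to 16.8% in OP, while the gene with the largest share varies between libraries in the UGT bars (Ugt2b5 or Ugt2b36) and the SULT bars (Sult2a8, or Sult1a1 in HFCF replicate 3).

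The 13 calls differed in how much they rested on single libraries. Over 18 alternative fits for each gene, 168 of 234 values stayed past the threshold, 66 lost the call and 0 changed sign. Gstp1, with log2 fold changes from -1.6 to -1.36, and Mgst3, from 1.39 to 1.9, passed in all 18. Gstt1 lost its call in 2 of the 18 and Sult1b1 in 3, while Gsta4 lost it in 10. A block for the replicate number ended every call but those of Gstp1, Gstt1, Mgst3 and Sult1b1. Total counts ended those of Gsta4, Gstp3, Gstt2 and Sult2a8. Omitting the low-count filter ended the same calls and that of Gsta3, and RLE scaling ended that of Gsta4. Gstp2 was lost when HFCF replicate 1 or 2 or OP replicate 1 was left out (adjusted p 0.0529 to 0.0898), and Gstp3 without each library except OP replicate 3 (0.061 to 0.20). Without HFCF replicate 1, and also without HFCF replicate 2, Mgst3 was the 1 higher and Gstp1 the 1 lower member left, and the calls over all genes fell as well, to 52 higher and 60 lower and to 34 higher and 54 lower. With the mitochondrial mRNA share as a covariate, 3 members were higher (Gsta1, Gstt1 and Mgst3) and 1 lower (Gstp1), and all genes gave 110 higher and 97 lower. Of the named members that had not passed, the covariate moved the log2 fold change of Ugt1a1 to 0.01, of Sult5a1 to 1.0, of Sult1d1 to 0.40, of Sult1a1 to -0.60, of Ugt3a2 to -0.41, of Gsto1 to -0.42 and of Gstm1 to -0.26, and none of these passed.

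**Figure D4:**
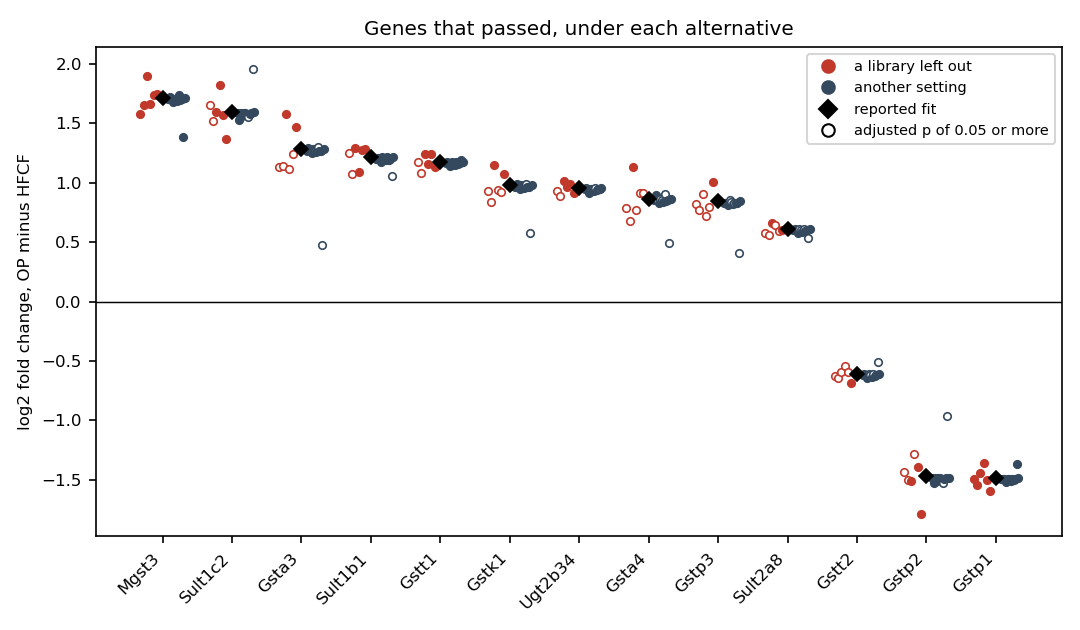
Log2 fold change, OP minus HFCF, of the 13 called genes in the reported fit (black diamonds), with 1 library left out (red) and under other settings (blue); open points have an adjusted p of 0.05 or more. All points of a gene stay on the same side of 0, and all points of Gstp1 and Mgst3 are filled. For Gsta3, Gsta4, Gstk1, Gstp2 and Gstp3 the open blue point nearest to 0 comes from the covariate fit on the mitochondrial share. For Sult1c2 that fit gave 1.96, its value farthest from 0.

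The genes around conjugation were read from lists that share some genes. Beside the counts per list, 3.26% of all tested genes were higher and 3.47% lower, 6.73% in either direction. Among genes with a mean of at least 10 CPM, 10.9% passed in either direction. No list was tested as a set, and in lists this short a few calls are not read as a result about the list. The calls come from the reported fit, and the covariate fit is not given for them. Of 13 tested genes that make or recycle glutathione, 1 was higher and 2 lower (median log2 fold change 0.25). Gpx1, a glutathione peroxidase, rose from 1218 ± 169.8 to 2124 ± 205 CPM (0.80, edgeR adjusted p = 0.0336), and the transsulfuration enzymes that supply cysteine fell, Cth from 663.5 ± 91.7 to 174 ± 44.5 CPM (-1.93, 0.00462) and Cbs from 273 ± 36.8 to 157.5 ± 31.6 CPM (-0.79, 0.045). The catalytic subunit of glutathione synthesis, Gclc, was at 123 ± 27.1 and 211.5 ± 51.9 CPM and did not pass (0.78, 0.0724). Among the genes that supply UDP-glucuronic acid, Ugdh, which makes UDP-glucuronic acid itself, was at 69.6 ± 21.2 and 71.3 ± 17.4 CPM (0.03, 0.954). Of 8 tested genes for PAPS, 0 were higher and 1 lower, the PAPS transporter Slc35b3, from 26.5 ± 0.797 to 13.0 ± 1.74 CPM (edgeR adjusted p = 0.00955). Papss2, the main PAPS synthase of liver, was at 78.8 ± 7.95 and 115 ± 19.8 CPM (0.55, 0.0845).

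Of 11 tested transporters of conjugates, Abcg2, an exporter that accepts sulfates, was higher (0.95, edgeR adjusted p = 0.0364) and Slco1a4, a basolateral uptake carrier, was lower (-1.27, 0.00955). Of 11 deconjugating enzymes tested, such as glucuronidases and sulfatases, 0 passed in either direction (median 0.15). Of 13 other conjugating enzymes tested, 5 were higher and 2 lower. Hnmt (1.34), Nat8 (1.07), Glyat (0.93) and Inmt (0.92) were among the higher ones, and the methyltransferase Nnmt (-1.59, 0.00529) and the acetyltransferase Nat2 (-0.84, 0.0207) were lower. Among 25 tested regulators of conjugation genes, 3 were higher and 1 lower. Nfe2l2, which encodes NRF2, was at 59.6, 64.7 and 56.9 CPM in HFCF and 103, 88.2 and 133 CPM in OP (0.84, 0.0298). Of 20 tested NRF2 target genes outside the families, 1 was higher, Osgin1 (1.78, 0.00587), and Nqo1, a standard NRF2 target, was at 4.56 ± 0.836 and 5.21 ± 1.72 CPM (0.19, 0.72). The receptors Ahr, Nr1i2 and Nr1i3 did not pass (log2 fold changes -0.12, 0.32 and 0.27).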

How the data were processed

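Poly(A) RNA libraries that keep strand information were made from liver and sequenced as read pairs, per the labels' protocols. Cutadapt 1.9, FastQC and the build GRCm39 are named in the submitters' processing notes. Aligner, counter and strandedness of counting: not given in the sources used here. Gene counts, as whole numbers, were deposited by the authors in 1 table for 6 libraries, 3 HFCF and 3 OP by their titles. In HFCF replicate 1, 879 genes had a count of 4 against 558 with 3 and 258 with 5, so counts were also divided by 4 as an alternative. Within groups no pair of libraries agreed within sampling noise (chi-square per degree of freedom 46.2 for HFCF replicates 1 and 2 and 147.7 to 349.7 for the other pairs).

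Ensembl identifiers were given symbols by a lookup table (55141 of 55401). GENCODE M21 gave exon overlaps, coding identity and union exon lengths for values per kilobase, and RefSeq GRCm38.p6 gave promoters; as both are of another build than the submitters', only the printed promoters carry coordinates. Genes were kept by filterByExpr, scaled by TMM and tested two-sided with edgeR 4.0.16 (glmQLFit, glmQLFTest) in R 4.3.3 over 17394 genes, with Benjamini-Hochberg adjustment and a threshold of 0.05. CPM uses TMM-scaled totals, SDs run over the 3 libraries of a group, and the standard error of a log2 fold change is its size over the root of F. The script was tested on simulated data. There edgeR recovered 23 of 100 genes set to differ 2-fold and 62 of 100 set to differ 4-fold. It called 10 of 17194 unchanged genes. A gene that did not pass may therefore still differ between groups.

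The members and lists were chosen with earlier results of these data known. A few results on genes of these lists are not reported here. Named with values are the members that passed, the 3 most abundant per kilobase in each family, the most abundant in each subfamily and those at 0 in a whole group. Gsta1, Gsta2, Gstm5, Gstt3, Mgst2, the unlisted Ugt and Sult genes, Gclc, Ugdh, Papss2, Nqo1, Ahr, Nr1i2, Nr1i3 and Gstp-ps were added after their values were seen. Alternatives were DESeq2 1.42.0, limma-voom (limma 3.58.1), RLE and upper quartile scaling, total counts, no filter on low counts, at least 1 CPM in 3 libraries, a block for the replicate number, each library left out, mitochondrial genes left out, the mitochondrial share as a covariate, other thresholds and, chosen after seeing the data, close copies summed at a coding identity of at least 95%. Figures were drawn with matplotlib 3.10.9.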

Additional observations from a re-analysis of the deposited data

How the results depend on the processing

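The main counts were 10 higher and 3 lower members (567 and 603 over all genes, given in brackets below). They were 14 and 3 with DESeq2 (1205 and 1257) and 14 and 3 at an adjusted p under 0.1 (1322 and 1230). They were 10 and 3 with limma-voom, upper quartile scaling, counts divided by 4, a filter of 1 CPM or mitochondrial genes left out (499 to 739 and 622 to 824). RLE scaling gave 9 and 3 (508 and 614), total counts 7 and 2 (418 and 536), and close copies summed 10 and 2 (569 and 605). Without the low-count filter 6 members were higher (298), and for a fold change of at least 2, 5 were higher (234). The mitochondrial share as a covariate gave 3 higher and 1 lower (110 and 97), and an adjusted p under 0.01 gave 4 and 1 (72 and 92). Leaving out 1 library gave 1 to 11 higher and 1 to 3 lower (34 to 655 and 54 to 655), with fewer samples in each fit. With the replicate number as a block, 3 were higher (Gstt1, Mgst3, Sult1b1) and 1 lower (Gstp1), and 87 and 93 over all genes. Deviations of same-numbered libraries correlated at 0.023, -0.13 and -0.16, and those of differently numbered libraries at -0.15 to 0.25. With 3 libraries per group, these values cannot decide whether the numbers pair the samples. The planned sum of close copies by protein identity was not run, as no protein table was used here.

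No called member changed sign. Among members that did not pass, the log2 fold change ran over left-out libraries from -0.22 to 0.077 for Gstm1 (above 0 without HFCF replicate 3 or OP replicate 2), from -0.11 to 0.060 for Gsto1 (above 0 without HFCF replicate 3 or OP replicate 3), from -0.19 to 0.34 for Sult1a1 (below 0 without OP replicate 1, HFCF replicate 1 or 2), from -0.15 to 0.54 for Sult5a1 (below 0 without OP replicate 3) and from -0.14 to 0.11 for Ugt2b5 (above 0 without HFCF replicate 3 or OP replicate 1). The covariate turned Sult1a1 (-0.60) and Ugt3a2 (-0.41). The cause was not tested. With mitochondrial genes left out of the totals, the family shares were 1.01 and 0.967% (GST, HFCF and OP), 0.296 and 0.327% (UGT) and 0.129 and 0.156% (SULT), since the totals were then smaller. Depth limits the members at or near 0 counts; Ugt1a2 and Ugt1a10 were untested because their counts stood in 1 or 2 libraries.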

Other observations

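Further lists of liver genes outside the families were read because conjugation genes are known to follow sex and zone. Over all tested genes 6.73% passed in either direction, and 10.9% of those with a mean of at least 10 CPM. These lists were not tested as sets either, and the covariate fit is not given for their calls. Of 15 tested female-biased genes, 4 were higher in OP and 1 lower (median log2 fold change 1.07): Cyp2b9, Cyp2b13, Hao2 and Cyp2a22 were higher, and Cux2, a female-biased transcription factor, fell from 11.4 ± 1.72 to 0.787 ± 0.444 CPM (-3.85 ± 0.39, edgeR adjusted p = 0.00309). Cyp2b13 and Hao2 were at 0 CPM in HFCF and only 0.545 and 1.25 CPM on average in OP. Cyp2b9 was at 84.4, 17.7 and 13.5 CPM in OP replicates 1 to 3. The most abundant gene of the list, Cyp4a14, was at 2930 ± 453 CPM in HFCF and 1764 ± 613.5 CPM in OP and did not pass (-0.73, edgeR adjusted p = 0.148). Of 21 male-biased genes, 3 were higher (Nudt7, Cyp2u1 and Bcl6) and 2 lower (C6 and Serpina1e), with a median of -0.003. The labels do not give the sex of the animals.

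Of 14 pericentral hepatocyte genes, 5 were higher and 0 lower (Lect2, Rgn, Gulo, Cyp2c29 and Aldh1a1), and of 14 periportal genes 0 were higher and 6 lower (Sds, Hal, Cps1, Gls2, Sdsl and Etnppl). Of 16 tested AhR, CAR and PXR target genes outside the families, 5 were higher and 2 lower. Cyp2a5 rose from 666 ± 219.7 to 1860 ± 569 CPM (1.48 ± 0.30, edgeR adjusted p = 0.0285), while Cyp3a25 fell from 1873 ± 30.7 to 673.5 ± 29.3 CPM (-1.48 ± 0.14, 0.00303) and Cyp3a11 from 1862 ± 198 to 1079 ± 138 CPM (-0.79 ± 0.17, 0.0336). The part of sex, zone or these receptors in the conjugation genes was not tested.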
